A study of Mus musculus with 151 samples.

Results

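The genes described here encode proteins of the mitochondrial ribosome, chosen as every gene name made of Mrpl or Mrps, a number and at most one letter from a to c that is present in all 7 count tables of the series. Of 35949 names shared by the tables, 77 met that rule, 48 of them named Mrpl and 29 named Mrps, and all 77 passed the expression filter in every tested comparison. By their known place, 50 belong to the large subunit and 26 to the small one, while Mrps36, despite its name, encodes a part of the oxoglutarate dehydrogenase complex. The large subunit count includes Mrps18a and Mrps30, whose proteins sit there in spite of their names. Of the subunits, 47 have a relative in bacterial ribosomes and 29 are found in mitochondria alone.

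The mitochondrial ribosome translates the few proteins that mitochondrial DNA encodes, all of them subunits of oxidative phosphorylation. Its RNA comes from the mitochondrial genome, but every one of its proteins is encoded in the nucleus, made in the cytosol and imported. Oocytes hold very many mitochondria, and variants of MRPS22, MRPS7 and MRPL50 have been linked to ovarian insufficiency in people.

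The study compared female mice conceived naturally (Natural) with those conceived by in vitro fertilization (IVF), both from CF-1 mothers and B6/SJL fathers and without any engineered allele. Natural embryos developed in mothers mated in their own cycle, whereas IVF embryos came from superovulated mothers, were cultured to the blastocyst and were moved to pseudopregnant CF-1 recipients. The libraries were made from whole ovaries at E18.5 (4 Natural, 6 IVF), 12 weeks (4 and 5) and 39 weeks (5 and 5), primordial germ cells (PGCs) at E13.5 (4 and 5), single oocytes at 12 weeks (36 and 40) and 39 weeks (9 and 10), and 12-week cumulus cells (5 and 5), the somatic cells that surround the oocyte. The adult mice had been delivered by cesarean section and raised by foster mothers. Those that gave oocytes and cumulus cells, Natural and IVF alike, were themselves superovulated with injected hormones before collection. The groups thus differ in superovulation of the mothers, culture, transfer and recipient together. For fetal collection one passage of the methods places IVF pregnancies a day later than Natural ones, so that stage and conception cannot be told apart at E18.5. One of the 39-week Natural ovaries, replicate 5, is labelled as 40 weeks.

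Total counts ranged from 2839022 to 43363799 per ovary, the lowest being a 12-week IVF ovary, from 4364495 to 8675189 per PGC library, from 839781 to 31126357 per oocyte and from 2532824 to 6345249 per cumulus library. Levels are given as counts per 1000000 counts of the library (CPM), scaled with the TMM method within each table. In the tests by edgeR's quasi-likelihood method, log2 fold changes are IVF against Natural with their SE, P values are two-sided and adjusted by the Benjamini-Hochberg method over all genes tested, and a gene was called at an adjusted P below 0.05. Ovary markers were present in the ovaries, oocyte markers (such as Gdf9 and Zp3) were abundant in nearly all oocytes, and Foxl2, Amh and Has2 of the granulosa list were at 0 in all PGC libraries. In whole ovaries, fewer cells of a type and less RNA per cell cannot be told apart.

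In E18.5 ovaries the mitochondrial ribosomal proteins had lower values in IVF than in Natural, with 73 of 77 below 0 and a median log2 fold change of -0.35, where the median of all 16415 genes was 0.00. The test called 4 of them lower, which is 5.19% of the members against 2.75% of all genes, and it called none higher, against 2.67% of all genes. The 4 were Mrpl34, Mrpl42 and Mrpl54 of the large subunit and Mrps21 of the small subunit. At an unadjusted P below 0.05 stood 41 members, or 53.2%, against 24.1% of all genes.

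The bases ahead of the start of Mrpl34 and Mrps21 are shown because both were called lower at E18.5 and both hold, upstream of the start, a motif of factors known from genes of mitochondrial proteins. The sequences are those of RefSeq on GRCm38.p6, from 250 bases before the start to the base just before it, read along the gene, and capitals mark the motifs. The Mrpl34 stretch is chr8:71464676-71464925 on the plus strand and the Mrps21 stretch is chr3:95871515-95871764 on the minus strand.
Mrpl34: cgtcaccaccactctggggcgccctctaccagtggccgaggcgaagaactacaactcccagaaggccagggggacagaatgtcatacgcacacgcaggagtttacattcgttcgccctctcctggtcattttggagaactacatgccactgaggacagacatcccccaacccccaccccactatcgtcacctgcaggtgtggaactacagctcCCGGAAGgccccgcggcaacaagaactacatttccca
Mrps21: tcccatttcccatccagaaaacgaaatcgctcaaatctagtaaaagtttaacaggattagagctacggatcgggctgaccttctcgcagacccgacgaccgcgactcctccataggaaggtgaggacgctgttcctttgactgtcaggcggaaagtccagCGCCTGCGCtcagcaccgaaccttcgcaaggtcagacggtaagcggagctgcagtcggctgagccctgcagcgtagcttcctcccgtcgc
In Mrpl34 the ETS motif CCGGAAG begins 37 bases before the start. In Mrps21 the NRF1 motif GCGCANGCG lies on the other strand and begins 90 bases before the start.

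Mrpl34, with a relative in the bacterial large subunit, lies on chromosome 8 at 71464959 to 71465747 (GRCm38, GENCODE annotation) in 2 exon blocks. Its levels were 30.9, 36.9, 37.4 and 37.4 CPM in the Natural ovaries, and the IVF ovaries ran from 22.0 over a median of 23.1 to 27.8 CPM. Every IVF value was thus below every Natural value, although the lowest Natural ovary stood apart from the other 3. The log2 fold change was -0.58 ± 0.12 (SE), with an adjusted P of 0.0172 by edgeR.

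Mrps21, a small protein with a bacterial relative, lies on chromosome 3 at 95862634 to 95871519. It was at 21.1, 23.3, 23.2 and 28.3 CPM in Natural and at 13.0 to 17.3 CPM (median 16.4) in IVF ovaries, again without overlap. Its log2 fold change was -0.61 ± 0.14 (edgeR, adjusted P = 0.0257).

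Mrpl54 and Mrpl42 belong to the proteins that only mitochondrial ribosomes have, and both genes are on chromosome 10, at 81264713 to 81266934 and at 95480805 to 95501940. Mrpl54 was the most abundant member per kilobase of exon in Natural E18.5 ovaries. Its values were 51.1, 60.8, 57.1 and 85.1 CPM in Natural and 37.1 to 46.1 CPM (median 44.0) in IVF (log2 fold change -0.58 ± 0.14, edgeR adjusted P = 0.0325). Mrpl42 was at 22.9, 28.3, 24.8 and 33.9 CPM in Natural and at 15.3 to 21.3 CPM (median 18.4) in IVF (-0.58 ± 0.14, edgeR adjusted P = 0.0354). Neither gene overlapped between the groups.

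**Figure D1:**
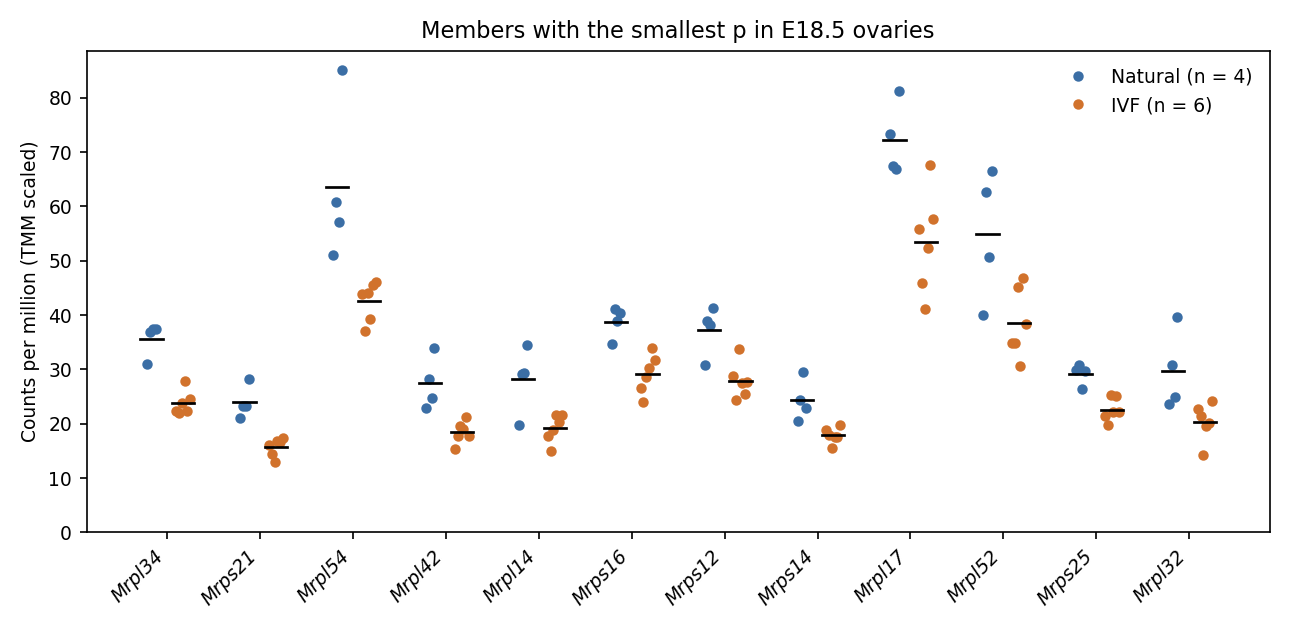
CPM (TMM scaled, linear axis from 0) of the 12 mitochondrial ribosomal proteins with the smallest P in E18.5 ovaries, with 1 point per ovary (4 Natural, 6 IVF) and a line at each group mean. The IVF points of Mrpl34 (22.0 to 27.8 CPM) lie below all Natural points (30.9 to 37.4 CPM), as they do for Mrps21, Mrpl54 and Mrpl42, while those of Mrpl14 and Mrpl52 overlap with Natural.

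The plot of these 12 genes also holds the 8 that followed in P without being called (edgeR adjusted P from 0.0641 to 0.0843), which were Mrpl14, Mrps16, Mrps12, Mrps14, Mrpl17, Mrpl52, Mrps25 and Mrpl32. Their log2 fold changes ran from -0.37 for Mrps25 to -0.56 for Mrpl14. Counting members whose 6 IVF ovaries all lay below the 4 Natural ones gave 9, or 11.7%, against 4.33% of all genes, and the reverse order was seen in none, against 4.28% of all genes. Besides the 4 called genes these 9 were Mrps14, Mrps16, Mrps25, Mrps33 and Mrpl40.

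The lower values were spread over both subunits. Of the large subunit 3 of 50 were called, with a median log2 fold change of -0.35, and of the small subunit 1 of 26, with a median of -0.32. Proteins with a bacterial relative (2 of 47 called, median -0.33) and those found in mitochondria alone (2 of 29, median -0.35) were close to each other. The paralogs Mrps18a, of the large subunit, and Mrps18b and Mrps18c, of the small one, descend from the same bacterial protein. They had log2 fold changes of -0.26 ± 0.23 for Mrps18a, -0.68 ± 0.23 for Mrps18b and -0.53 ± 0.21 for Mrps18c, none of them called. Among the members linked to ovarian insufficiency, Mrps22 was at -0.21 ± 0.15, Mrps7 at -0.29 ± 0.11 and Mrpl50 at -0.12 ± 0.15, also without a call. Mrpl12, a protein of the ribosomal stalk that also binds the mitochondrial RNA polymerase, was at -0.35 ± 0.14. Mrps36, the member that is no ribosomal subunit, was at -0.80 ± 0.30 (edgeR adjusted P = 0.126).

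Other lists around the mitochondrial ribosome behaved in different ways at E18.5. Of 7 genes listed as subunits that carry other names, Chchd1 of the small subunit was called lower (-0.54 ± 0.11, edgeR adjusted P = 0.0221), and their median was -0.25. The list also holds Oxa1l, an insertase bound to the ribosome. None of 24 assembly factors and none of 14 translation factors was called, with medians of -0.08 and 0.01. Among 9 genes of mitochondrial translation linked to ovarian insufficiency only Lars2, the mitochondrial leucyl-tRNA synthetase, was called. It was at 1689, 465, 8552 and 329 CPM in Natural and from 97.8 to 237 CPM in IVF ovaries, without overlap, and Natural replicate 3 stood far above the rest. The log2 fold change of Lars2 was -4.10 ± 0.72 (edgeR adjusted P = 0.0129), and without that ovary, an alternative chosen after seeing the data, it was -2.37 ± 0.41 (edgeR adjusted P = 0.0201). Whether all reads counted for Lars2 came from its own transcript was not tested, so its level and fold change are uncertain. Cytosolic ribosomal proteins were called lower in 56 of 76 cases (median -0.52) and nuclear subunits of oxidative phosphorylation in 28 of 74 (median -0.46).

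Taken as a share of all counts, the 77 genes held 0.212%, 0.278%, 0.228% and 0.292% in the Natural E18.5 ovaries, and from 0.189% to 0.221% (median 0.213%) in the IVF ovaries. One Natural ovary, replicate 1, fell inside the IVF range. The number of calls at E18.5 rested on single ovaries. Without Natural replicate 1 it was 19, and without IVF replicate 3 it was 7. It was 0 without Natural replicate 2, 1 without Natural replicate 4 or IVF replicate 2, and 2 without IVF replicates 1, 4 or 6, each left out alone. DESeq2 called 15 on all ovaries, in a fit that also called more of all genes than edgeR did. Shares over all genes were not set beside the counts of these refits. The counts thus show only how far the calls depended on single ovaries and on the method. The median over members stayed between -0.43 and -0.28 when each ovary was left out in turn.

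Several measures moved with the groups at E18.5, and their part in the result was not tested. The summed level of 6 erythroid markers was 598 to 1596 CPM in Natural and 1598 to 4571 CPM in IVF ovaries, 2 of the 6 genes being called higher. A list of 6 genes of handling and RNA quality summed to 250 to 803 CPM in Natural and 225 to 320 CPM in IVF, with the small noncoding RNAs Rmrp, Rpph1 and Rn7sk called lower. Of 9 oocyte markers 4 were called lower, with sums of 195 to 582 CPM in Natural and 110 to 287 CPM in IVF. Of 4 theca and luteal markers 3 were called higher, at sums of 9.05 to 13.4 CPM against 16.3 to 24.4 CPM. None of the markers of these lists was at 0 in all E18.5 ovaries.

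The fold change at E18.5 also moved with gene length. Among all other genes with an annotated exon length, the median log2 fold change rose from -0.42 in genes under 1000 bases, over -0.28 and -0.12, to 0.09 in genes of 4000 bases or more. The members had medians of -0.43 (9 genes), -0.36 (22 genes), -0.29 (24 genes) and -0.32 (22 genes) in the same classes. In the shortest class members and other genes had nearly the same median, while in the longest class the members lay below 0 and the other genes above it. Members were short, with a median exon length of 2255 bases against 3498 bases over protein-coding genes.

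**Figure D2:**
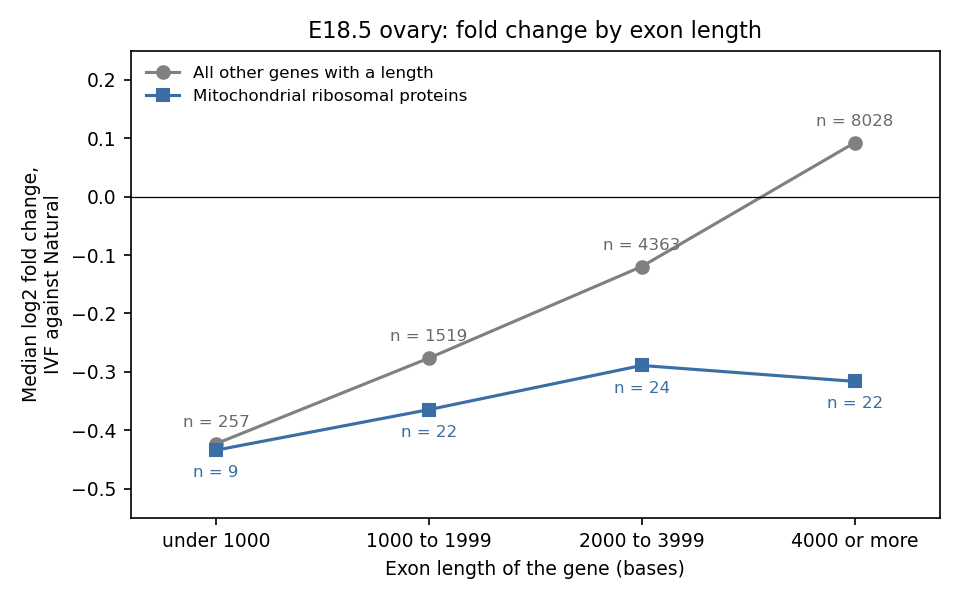
Median log2 fold change, IVF against Natural, in E18.5 ovaries (y axis) in 4 classes of exon length in bases (x axis), for mitochondrial ribosomal proteins (blue squares, 9 to 24 genes a class) and all other genes with a length (grey circles). The grey line rises from -0.42 to 0.09 with length, while the blue line stays between -0.43 and -0.29.

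In 12-week ovaries no mitochondrial ribosomal protein was called, against 0% of all 17628 genes called higher and 0.00567% called lower. The median log2 fold change of the 77 was 0.04 (all genes 0.01), with 46 above and 31 below 0, and 3 were at an unadjusted P below 0.05 (3.9%, against 14.4% of all genes). The smallest P belonged to Mrps6, which encodes a small subunit protein with a bacterial relative. It was at 22.1, 21.5, 23.9 and 20.0 CPM in Natural and at 17.3, 13.9, 16.5, 16.2 and 17.1 CPM in IVF ovaries, without overlap. Its log2 fold change was -0.44 ± 0.12 (edgeR adjusted P = 0.172), and DESeq2 called it at an adjusted P of 0.0227. Its exons share bases with Slc5a3 on the same strand, so its reads are uncertain.

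Mrpl48 (-0.37 ± 0.13), Mrps12 (-0.32 ± 0.13), Mrpl49 (0.21 ± 0.10) and Mrps2 (0.15 ± 0.08) followed, with edgeR adjusted P from 0.268 to 0.392. Markers of the oviduct epithelium summed to 3330 to 7639 CPM in Natural and 36.5 to 3031 CPM in IVF ovaries at 12 weeks, and granulosa markers to 1246 to 1803 CPM and 1672 to 3831 CPM. The part of these differences in the members' values was not tested. A P above the threshold does not show that the levels were equal.

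In 39-week ovaries again no member was called, against 0.0582% of 17186 genes called higher and 0.204% called lower, but 61 of 77 lay above 0. The median was 0.09 (all genes 0.03), and 10 members were at an unadjusted P below 0.05 (13%, against 19.2% of all genes). DESeq2 called none either. Mrpl12 came first, at 60.8, 53.2, 60.1, 42.2 and 47.1 CPM in Natural and 68.5, 69.1, 67.3, 61.7 and 74.8 CPM in IVF ovaries. The groups did not overlap, and the log2 fold change was 0.38 ± 0.11 (edgeR adjusted P = 0.126). Mrpl15 (0.29 ± 0.09), Mrps30 (0.25 ± 0.09), Mrpl19 (0.20 ± 0.07) and Mrpl45 (0.27 ± 0.10) came next, all proteins of the large subunit, with edgeR adjusted P from 0.145 to 0.201.

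At the same age all 76 cytosolic ribosomal proteins lay above 0, with a median of 0.45 but no call, whereas the nuclear subunits of oxidative phosphorylation had a median of 0.03. All 7 tested genes of the mitochondrial DNA lay below 0 (median -0.68, none called), and these genes held 2.49% to 5.34% of counts in Natural and 1.88% to 2.91% in IVF. Theca and luteal markers summed to 11256 to 19482 CPM in Natural and 6900 to 14045 CPM in IVF at 39 weeks, and oviduct markers reached 8708 CPM in 1 IVF ovary. The list of handling and RNA quality summed to 323 to 587 CPM (median 573) in Natural and 270 to 416 CPM (median 300.1) in IVF, and granulosa markers to 629 to 1765 CPM and 1109 to 3395 CPM. Their part was not tested.

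The difference of the IVF effect between ages was tested in a joint fit of the 3 ovary tables. Age there goes with separately made tables, so that age and table cannot be told apart. Both differences from E18.5 share the E18.5 ovaries. From E18.5 to 12 weeks, 2 members were called with a higher IVF effect at 12 weeks (2.6% of members, against 0.274% of 19724 genes), and none with a lower one (0.0406% of all genes). They were Mrps21, with a difference of log2 fold changes of 0.79 ± 0.16 (edgeR adjusted P = 0.0401), and Mrpl42, with 0.70 ± 0.16 (edgeR adjusted P = 0.0492). In this fit Mrps21 was at 27.4 to 36.8 CPM in Natural and 31.1 to 38.1 CPM in IVF ovaries at 12 weeks. The median difference over members was 0.35 (all genes 0.01). Leaving out single ovaries of any of the 3 ages moved the count between 0 and 3, and for 23 of the ovaries it was then 0 or 1.

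From E18.5 to 39 weeks, 23 members were called higher (29.9%, against 5.1% of all genes) and none lower (2.85% of all genes), with a median difference of 0.44 (all genes 0.07). The 23 included 17 of the large and 6 of the small subunit. Mrps21 differed by 0.73 ± 0.16, Mrpl12 by 0.75 ± 0.16, Mrpl17 by 0.69 ± 0.15 and Mrpl15 by 0.55 ± 0.13 (edgeR adjusted P from 0.00573 to 0.00965). Without the 39-week Natural ovary that is labelled as 40 weeks the count was 5. It was 10 without 12-week Natural replicate 4, 11 without E18.5 Natural replicate 4, 15 without 39-week Natural replicate 4 and 29 without E18.5 Natural replicate 1. Of the cytosolic ribosomal proteins 71 of 76 were called (median 0.97), of the nuclear subunits of oxidative phosphorylation 25 of 74 (median 0.48), and of the translation factors Tufm was called higher and Guf1 lower. In the list of subunits with other names Oxa1l was called higher, which is an insertase bound to the ribosome and not itself a subunit.

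Mrpl12, among the members with the smallest P for this difference, is an example of a large difference in the joint fit. In Natural ovaries it was at 56.1, 59.5, 60.7 and 62.3 CPM at E18.5 and at 66.4, 58.2, 64.1, 46.3 and 51.3 CPM at 39 weeks. In IVF ovaries it was at 43.1, 34.7, 61.5, 47.7, 43.0 and 44.7 CPM at E18.5 and at 70.7, 75.3, 73.0, 67.7 and 81.9 CPM at 39 weeks. Before birth 5 of the 6 IVF ovaries were below all Natural ones, and at 39 weeks all 5 were above. Mrpl12 was called at neither age alone and does not stand for the members. Their median log2 fold change was -0.35 at E18.5 and 0.09 at 39 weeks.

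From 12 to 39 weeks none was called, against 1.96% of all genes with a higher and 0.75% with a lower IVF effect, and the median difference was 0.05. DESeq2 called 1 member for this step. The smallest P were those of Mrps6 (0.74 ± 0.22), Mrpl12 (0.48 ± 0.17), Mrps12 (0.46 ± 0.16) and Mrpl15 (0.33 ± 0.13), with edgeR adjusted P from 0.0618 to 0.143.

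**Figure D3:**
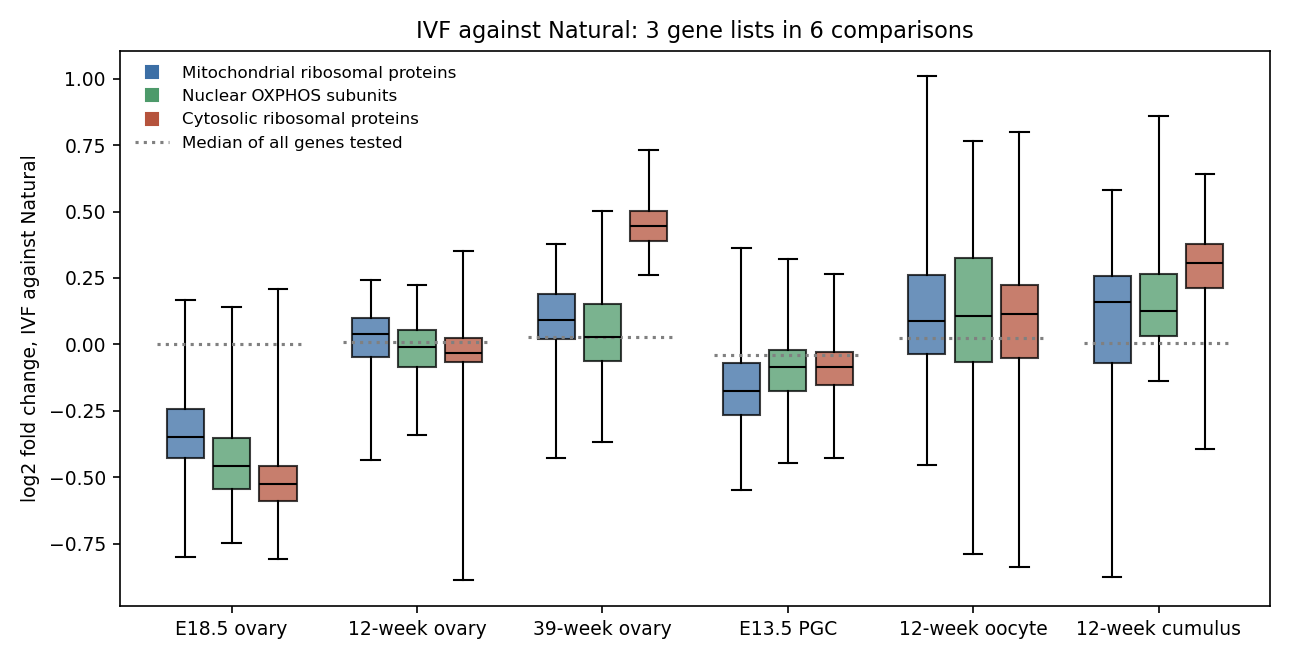
Log2 fold change of IVF against Natural (y axis) in 6 comparisons (x axis) for the mitochondrial ribosomal proteins (77 genes), nuclear OXPHOS subunits (74) and cytosolic ribosomal proteins (76), as boxes of the quartiles with the median and whiskers to the lowest and highest gene, and a dotted line at the median of all genes tested. At E18.5 the 3 boxes lie below 0 (medians -0.35, -0.46 and -0.52), and at 39 weeks the cytosolic ribosomal proteins (median 0.45) lie above the mitochondrial ones (median 0.09).

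Between ages of Natural ovaries, 24 members were higher at 12 weeks than at E18.5 (31.2%, against 25.3% of all genes) and 1 was lower (1.3%, against 24.3%). The largest rise among members was that of Mrpl36, a very small protein with a bacterial relative, from 21.5, 24.0, 21.7 and 24.9 CPM at E18.5 to 45.5, 43.2, 37.7 and 42.4 CPM at 12 weeks (log2 fold change 0.87 ± 0.15, edgeR adjusted P = 3.5e-05). Mrps34 (0.81 ± 0.13), Mrpl41 (0.81 ± 0.18) and Mrpl53 (0.80 ± 0.16) followed, and Mrpl50 rose by 0.44 ± 0.16 on the log2 scale. The member that fell was Mrps22, from 17.5, 23.1, 17.0 and 23.0 CPM to 16.0, 14.8, 13.8 and 14.8 CPM (-0.44 ± 0.14, edgeR adjusted P = 0.0129). Over the same step 47 of 74 nuclear subunits of oxidative phosphorylation were called higher and 35 of 76 cytosolic ribosomal proteins lower.

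From 12 to 39 weeks in Natural ovaries, 5 members were lower (6.49%, against 11.6% of all genes) and none was higher, against 10% of all genes. Mrps6 went from 22.0, 21.3, 24.1 and 19.9 CPM to 14.7, 11.2, 13.2, 9.07 and 9.61 CPM (-0.92 ± 0.16, edgeR adjusted P = 0.000505). Mrps17 (-0.46 ± 0.09), Mrpl35 (-0.38 ± 0.12), Mrpl21 (-0.37 ± 0.12) and Mrps12 made up the rest. The count was 2 without 12-week replicate 1 or 2 or 39-week replicate 3 or 5, and 3 without 12-week replicate 4 or 39-week replicate 2 or 4. The share of members called here was below that of all genes. Marker sums of the Natural ovaries, scaled within each table, moved with both steps. Oviduct markers were at 177 to 478 CPM at E18.5, 3330 to 7639 CPM at 12 weeks and 30.6 to 193 CPM at 39 weeks, and theca and luteal markers at 9.05 to 13.4, 6510 to 13256 and 11256 to 19482 CPM. Their part in the age differences was not tested.

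In PGCs at E13.5 no gene of any kind was called, with 0% of 12763 genes in either direction, by edgeR or by DESeq2. Of the members 69 of 77 lay below 0 in IVF (median -0.17, all genes -0.04), and 1 was at an unadjusted P below 0.05, as were 349 of all genes. That gene was Mrpl10, whose protein carries the stalk, at 47.2, 39.4, 63.6 and 48.3 CPM in Natural and 39.6, 24.9, 33.5, 42.1 and 35.9 CPM in IVF libraries (-0.49 ± 0.21, edgeR adjusted P = 1). Its groups overlapped, as did those of Mrpl16, Mrpl18, Mrps21 and Mrpl2, which followed with log2 fold changes from -0.36 to -0.47. Mitochondrial ribosomal proteins made up a larger share of counts in PGCs than in any other library type, at 0.536% ± 0.0389 (SD, n = 4) in Natural and 0.482% ± 0.0317 (SD, n = 5) in IVF. The tables were made separately, and ovaries with another library protocol, so cell type, age, protocol and table cannot be told apart in that ranking. Genes of the mitochondrial DNA took 16.0% of counts in IVF replicate 2 and 4.61% to 6.95% in the other PGC libraries. With those genes left out of the total, the members' share was 0.569% ± 0.0365 in Natural and 0.523% ± 0.0196 in IVF.

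**Figure D4:**
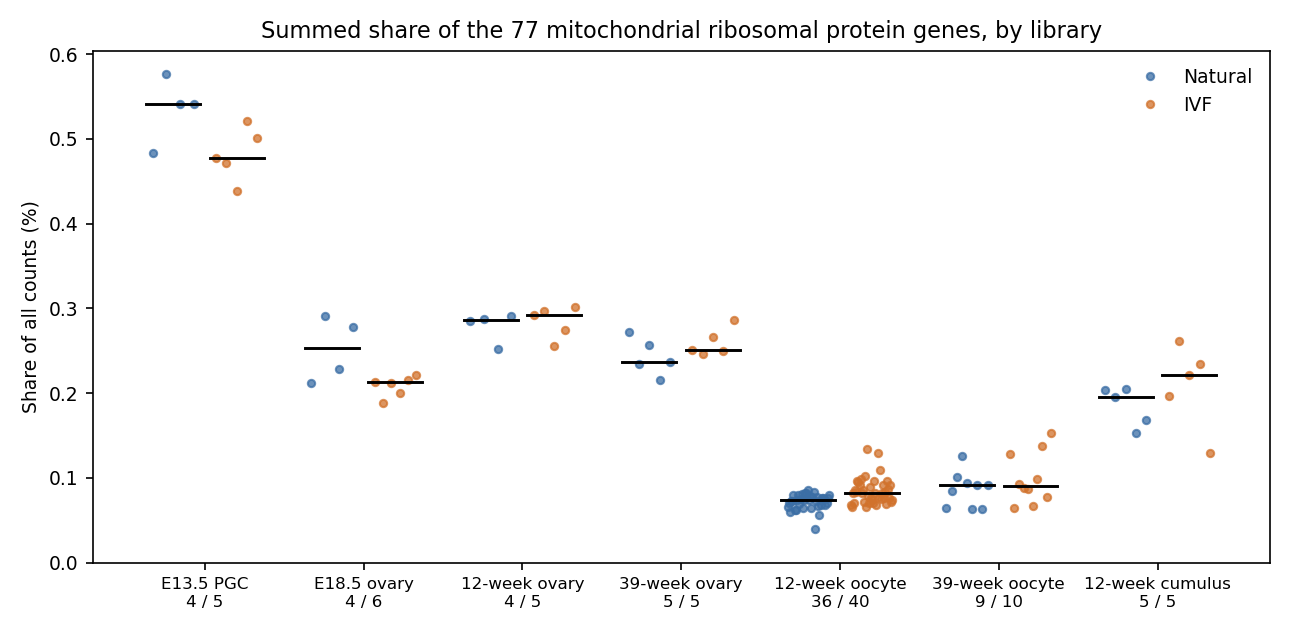
Share of all counts in percent (y axis, from 0) held by the 77 mitochondrial ribosomal protein genes in each library of 7 tables (x axis, with the numbers of Natural and IVF libraries below each name), with a line at the group median. PGCs lie highest, at 0.438% to 0.577%, the oocyte tables have the lowest medians, and Natural E18.5 ovaries spread from 0.212% to 0.292%.

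In 12-week oocytes the counts were summed over single oocytes that share the first fields of their library name, giving 5 Natural and 5 IVF sets. The labels do not say that a set is a donor, so P values measure the spread between sets. No member was called, against 0.0208% of 14444 genes called higher and 0.00692% called lower. The median log2 fold change was 0.09 (all genes 0.02). Mrps31, a small subunit protein of mitochondria alone, was at 5.57, 6.46, 4.25, 10.2 and 3.43 CPM in Natural and at 7.39, 9.38, 5.66, 19.8 and 16.7 CPM in IVF sets (0.98 ± 0.37, edgeR adjusted P = 0.699). The groups overlapped. For Mrpl49 (0.54 ± 0.21), Mrpl48 (0.52 ± 0.24), Mrps18b (0.71 ± 0.32) and Mrpl10 (-0.25 ± 0.12) the adjusted P was at least 0.707. In 3 Natural and 3 IVF oocytes the oocyte markers summed to under 0.2 of their group's median, and without these 6 the count of called members was also 0 and the median 0.06.

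In 12-week cumulus cells the test, which held the set of library names as a covariate, called no member, against 0% of 11080 genes called higher and 0.00903% called lower. The median was 0.16 (all genes 0.00). Mrps25 was at 36.0, 21.0, 15.2, 16.9 and 13.2 CPM in Natural and 6.30, 12.0, 7.54, 22.9 and 20.4 CPM in IVF libraries (-0.60 ± 0.23, edgeR adjusted P = 0.731), with overlap. Mrpl41 did not overlap, at 14.4, 14.6, 14.3, 13.4 and 12.5 CPM against 15.7, 18.8, 17.1, 22.9 and 17.0 CPM (0.40 ± 0.19, edgeR adjusted P = 0.832). Mrpl38 (0.42 ± 0.17), Mrps10 (0.56 ± 0.23) and Mrpl54 (0.47 ± 0.22) were the others named by P. One Natural library bears a name used for IVF oocytes, and without it the count of called members was 0 as well.

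The 39-week oocytes carry no set names, so the summed counts of 9 Natural and 10 IVF oocytes were compared without a test, and intervals cover counting error only. At a fold of at least 1.5, 28 of 77 members were higher in IVF (36.4%, against 28.7% of 22366 genes with 10 summed counts) and 18 lower (23.4%, against 37.5%). Among the 27 members at 10 CPM or more, 13 were higher and 5 lower, against 21.5% and 21% of 6107 genes at that level. A level in either group was enough, and 7 of the 27 reached it in 1 group only, 3 of them in Natural and 4 in IVF, so nothing is read from these counts. Among these 27, Mrpl21 of the large subunit rose the most, at 19.0 CPM (95% exact Poisson interval 18.2 to 19.9) in Natural and 43.4 CPM (42.4 to 44.3) in IVF. Over single oocytes it ran from 1.42 over a median of 24.8 to 51.1 CPM in Natural and from 23.4 over 32.3 to 86.2 CPM in IVF. Mrpl18 (55.9 against 109 CPM), Mrps14 (27.2 against 52.8 CPM) and Mrpl45 (26.4 against 49.6 CPM) came next.

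The largest falls among the 27 were those of Mrpl15 (10.7 against 2.61 CPM), Mrpl48 (16.7 against 4.10 CPM), Mrps7 (15.2 against 7.10 CPM) and Mrps23 (35.6 against 17.3 CPM). The first 3 of these were at 10 CPM in Natural alone, a choice that favours falls. In Natural oocytes 6 and 9, however, the oocyte markers summed to 3020 and 4464 CPM, or 0.123 and 0.182 of the group median. Without these 2 oocytes, a choice made after seeing the data, Mrpl48 stood at 5.08 against 3.93 CPM and Mrps7 at 5.56 against 6.80 CPM, so that neither passed a fold of 1.5 and Mrps7 turned direction. Mrpl15 stayed lower at 6.97 against 2.50 CPM and Mrps23 at 27.4 against 16.6 CPM, and Mrpl18 stayed higher at 65.8 against 105 CPM, whereas Mrpl21 (28.0 against 41.5 CPM), Mrps14 and Mrpl45 no longer reached a fold of 1.5. Then 16 members were higher (20.8%, against 23.5% of all genes with 10 summed counts) and 12 lower (15.6%, against 33.1%). In that set the share of members higher in IVF was no longer above that of all genes. Among the 23 members then at 10 CPM, 17.4% were higher (8.69% of all genes at that level) and 4.35% lower (10.5%). A level in either group was again enough, so nothing is read from these shares. Erythroid markers summed to 116 to 22063 CPM (median 1933) in the 9 Natural and 3.04 to 31342 CPM (median 180.1) in the 10 IVF oocytes, and their part was not tested.

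Setting Natural 12-week cumulus cells against Natural oocytes gave a wide spread among members. In cumulus cells 50 of 77 were higher (64.9%, against 37% of 12867 genes) and 18 lower (23.4%, against 49.6%). The median log2 fold change was 1.66, against -0.68 for all genes, and scaling by total counts alone moved these to 2.55 and 0.20, with 55 members higher and 8 lower. The tables were made separately, so cell type and table cannot be told apart. A pair of cumulus libraries bear the name fields of Natural oocyte sets in the same test, so the 10 samples may not be independent, and the Natural cumulus library with the name of an IVF oocyte set is among them. Without that library 47 members were higher and 18 lower.

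Mrpl33, a large subunit protein with a bacterial relative, was at 0.245, 0.0343, 0.566, 0.759 and 0.668 CPM in the oocyte sets and at 34.6, 43.1, 28.9, 30.6 and 30.2 CPM in cumulus cells (log2 fold change 6.20 ± 0.50, edgeR adjusted P = 4.7e-08). Mrpl43 (4.58 ± 0.54), Mrpl52 (4.56 ± 0.52) and Mrps34 (4.47 ± 0.58) came next. In the other direction Mrpl3, of the large subunit, was at 58.2, 53.1, 37.4, 55.7 and 31.1 CPM in oocytes and at 8.77, 4.45, 10.2, 6.27 and 11.2 CPM in cumulus cells (-2.53 ± 0.29, edgeR adjusted P = 1.5e-06). Mrpl21 (-2.42 ± 0.26), Mrpl47 (-2.42 ± 0.33) and Mrpl18 (-1.98 ± 0.20) were also lower in cumulus cells, and all 8 of these genes kept their direction under the other scaling.

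Subunits of the same ribosome thus stood at levels far apart in oocytes. Per kilobase of exon, Natural 12-week oocytes ran from 0.0445 CPM per kb for Mrpl33 to 41.1 CPM per kb for Mrpl18, with a median of 1.33. Natural 12-week cumulus cells, made with the same type of protocol, ran from 0.454 to 51.4 CPM per kb with a median of 8.74. Natural 12-week ovaries, made with another protocol, ran from 1.78 to 78.8 CPM per kb with a median of 13.6. The low end in oocytes rests on few counts, with Mrpl33 at 1 to 26 summed counts per Natural set. Levels per kilobase depend on the annotated exons. Mrpl33, Mrpl3 and Mrps34 share exon bases with other annotated genes on the same strand, Mrps34 with Nme3. On the opposite strand Mrpl18 overlaps Tcp1, Mrpl43 overlaps Twnk, Mrpl21 overlaps Ighmbp2 and Mrpl47 overlaps Actl6a and Ndufb5. The levels of these genes and their differences between cell types are uncertain to that extent.

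The paralogs of Mrps18 differed between the cell types in the same direction, with log2 fold changes in cumulus cells of 3.82 ± 0.29 for Mrps18a, 1.80 ± 0.37 for Mrps18b and 4.05 ± 0.29 for Mrps18c. Mrpl12 (3.94 ± 0.28), Mrps22 (1.83 ± 0.31), Mrps7 (1.66 ± 0.28) and Mrpl50 (1.45 ± 0.22) were higher in cumulus cells too, while Mrps36 was lower (-1.70 ± 0.31). Cytosolic ribosomal proteins were called higher in 74 of 76 cases, with a median of 4.81, and nuclear subunits of oxidative phosphorylation in 70 of 74, with a median of 3.70.

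**Figure D5:**
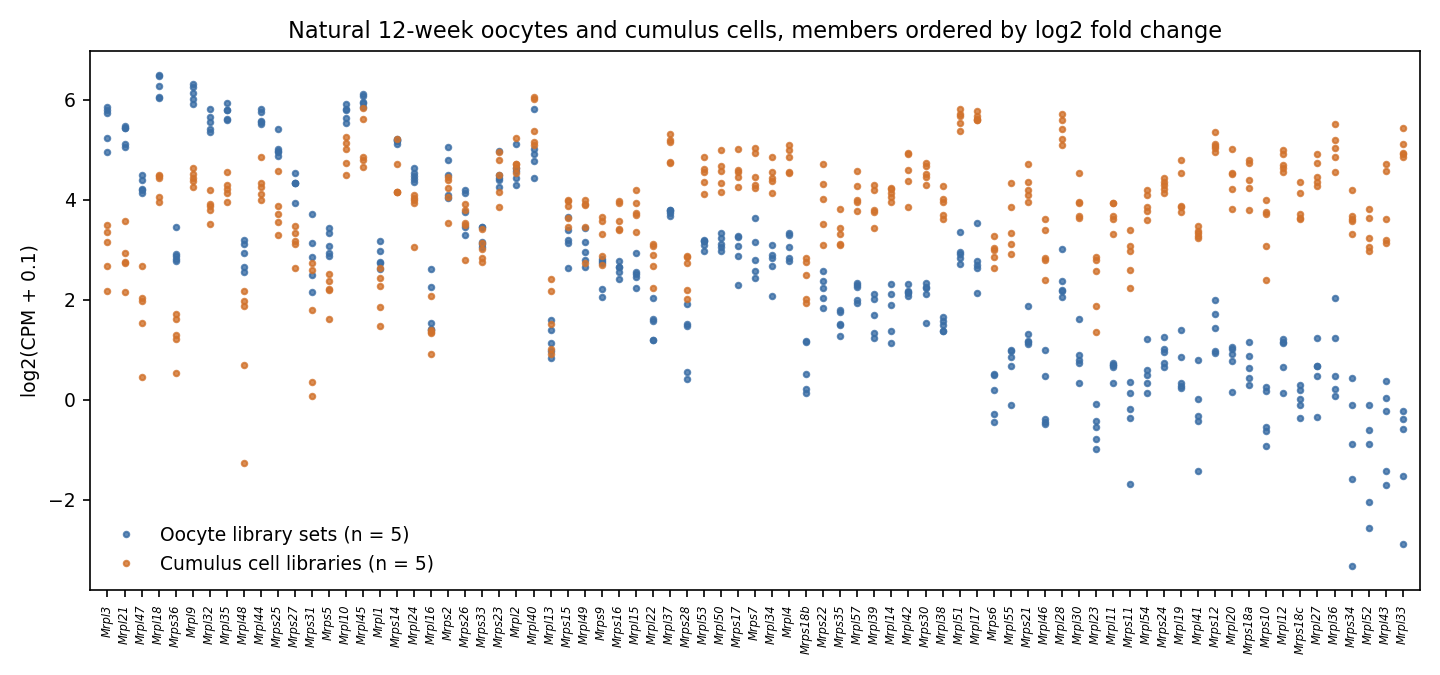
Level of each of the 77 mitochondrial ribosomal proteins in Natural 12-week oocyte sets (blue, n = 5) and cumulus libraries (orange, n = 5), as log2 of CPM with 0.1 added (y axis), with genes ordered by log2 fold change (x axis). The oocyte points fall from left to right over a wider range than the cumulus points, from Mrpl3 (31.1 to 58.2 CPM) to Mrpl33 (0.0343 to 0.759 CPM).

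Between IVF and Natural no member was called outside E18.5, and Mrps22, Mrps7, Mrpl50 and Mrps36 were not called at E18.5 either. Mrps22 had log2 fold changes of 0.23 ± 0.13 in 12-week ovaries, 0.20 ± 0.13 in 39-week ovaries, -0.12 ± 0.20 in PGCs, 0.11 ± 0.26 in 12-week oocytes and -0.02 ± 0.23 in cumulus cells. Mrps7 ran from -0.18 ± 0.19 in PGCs to 0.26 ± 0.17 in cumulus cells, and Mrpl50 from -0.19 ± 0.25 in PGCs to 0.27 ± 0.16 in 12-week oocytes. Mrps36 was at 0.36 ± 0.39 in PGCs, opposite in sign to most members there. In none of the tested comparisons of IVF with Natural was a member called a second time.

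The gene models were described from GENCODE on GRCm38. Members lay on 17 chromosomes, with 10 on chromosome 11. Of the 77, 18 (23.4%) had the start of a protein-coding gene on the other strand within 1000 bases and facing away, against 6.79% of 21951 protein-coding genes. Mrpl54 was 26 bases from Apba3, Mrps34 and Mrps18c were 29 bases from Eme2 and Helq, Mrpl49 was 59 bases from Fau, which encodes a cytosolic ribosomal protein, and Mrps12 was 172 bases from Sars2, a mitochondrial seryl-tRNA synthetase. Exon bases were shared with a gene on the same strand in 8 members and with one on the opposite strand in 27. Among them were Mrps34 and Mrpl53 on the same strand, and Mrpl36, which overlaps Ndufs6 on the opposite strand. The levels of all such members are uncertain to that extent.

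Of the 77 genes 68 had a promoter sequence from 250 bases before to 50 after the start. Letters of the NRF1 motif GCGCANGCG were found on either strand in 23.5% of them, against 12.3% of the promoters of genes tested at E18.5 and 6.35% of all 27025 promoters. The ETS motif CCGGAAG was in 36.8%, against 16.1% and 9.08%, and the YY1 motif AAGATGGCG in 11.8%, against 2.71% and 1.49%. No motif contains another, and at least 1 of them was present in 60.3% of the members' promoters, against 27.5% and 15.2%. Of the genes called at E18.5, Mrpl34 and Mrps21 hold the matches printed above, Mrps21 has a further ETS match at base 19 of its transcript, and Mrpl42 has a YY1 match at base 28. A match describes letters and is not a measured binding site.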

How the data were processed

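RNA was sequenced from whole ovaries with a stranded mRNA kit and from PGCs, single oocytes and cumulus cells with a low-input SMART-Seq protocol. The authors deposited whole-number read counts per gene in 7 tables. Their processing notes name Trimmomatic 0.32, STAR 2.3.0e, featureCounts 1.5.0, DESeq2 and mm10, without saying which tables each served, while the methods of the study name Trim Galore for low-input libraries. The strand setting of the counting is not given in the sources used here.

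From these counts, genes were filtered with filterByExpr, scaled by TMM and tested with edgeR 4.0.16 (quasi-likelihood) in R 4.3.3, adjusting over all genes tested, with a threshold of 0.05. Comparisons of 12-week oocytes used counts summed per library name set, those of cumulus cells had the set as a covariate, and the 3 ovary tables were joined for tests between ages. Intervals for 39-week oocytes are 95% exact Poisson intervals. They cover counting error only, since reads carried no molecular identifiers. The tests were tested on simulated data. Alternatives were RLE scaling, other filters, DESeq2 1.42.0, a replicate block and leaving out each library.

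The members and lists were chosen with earlier results of these data known. Named genes were the 12 members with the smallest P at E18.5, 5 in each other comparison of IVF with Natural, 4 in each test between ages, the 4 largest rises and falls in the remaining comparisons (in 39-week oocytes among members at 10 CPM or more), and Mrps18a, Mrps18b, Mrps18c, Mrps22, Mrps7, Mrpl50, Mrpl12 and Mrps36. Where labels do not tie libraries to separate animals, P values measure the spread between libraries, which may be technical. The 39-week cumulus cells were not analysed here. Deviations of same-numbered samples did not move together in every pair, so the numbers were not taken as pairing the samples.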

Additional observations from a re-analysis of the deposited data

Results flagged for a closer look

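Dixon's test for a single sample far from the rest of its group was applied to 180 groups of 4 to 10 samples and marked 7, or 3.89%, where chance marks about 1 in 20. Natural replicate 3 of the 12-week ovaries had the lowest share of counts in the members, 0.252%, with the next at 0.285%. Mrpl34 was lowest in E18.5 Natural replicate 1, at 30.9 CPM with the next at 36.9 CPM. In 12-week IVF ovaries Mrpl48 was lowest in replicate 2, at 11.8 CPM, and Mrps36 highest in replicate 5, at 8.27 CPM. Mrps18a was highest in 39-week Natural replicate 1, at 31.9 CPM, Mrpl16 in IVF PGC replicate 4, at 33.2 CPM, and Mrps36 in the fourth Natural set of 12-week oocytes, at 8.45 CPM.

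Effects of IVF that differed between ages by the interaction test of edgeR are marked as well. From E18.5 to 12 weeks these were 2 members, Mrps21 (0.79) and Mrpl42 (0.70, both as differences of log2 fold changes). From E18.5 to 39 weeks there were 23, those with the smallest P being Mrps21 (0.73), Mrpl12 (0.75), Mrpl17 (0.69) and Mrpl15 (0.55). Both sets rest on the same E18.5 ovaries.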

How the results depend on the processing

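Of 408 values of comparisons recomputed under alternatives, 352 were rated as unchanged and 56 as moved. A count was rated as unchanged within a factor of 1.5, and a median or share when it shifted less than the spread between libraries. The sign of these values was not rated. Of 3217 values of named genes 3097 kept their status as called or not called, 80 lost a call and 40 gained one. With a call in either fit 0 reversed, while 105 called in neither fit differed in sign. DESeq2 called 15 members at E18.5, 1 in 12-week ovaries and 1 for the change of effect from 12 to 39 weeks. For the change from E18.5 to 12 weeks, RLE scaling and a minimum of 10 counts in every library left 1 call each, and that minimum gave 1 from 12 to 39 weeks. Members past a fold of 1.5 in 39-week oocytes numbered 23 by the median over oocytes, 18 at 10 CPM or more and 28 without Natural oocytes 6 and 9. Over all genes, E18.5 ovaries had 888 higher and 968 lower calls by DESeq2 (edgeR 439 and 452), 12-week ovaries had 158 and 487 (edgeR 0 and 1), and 39-week ovaries had 500 and 589 (edgeR 10 and 35).

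With the replicate number as a block, 0 members were called at E18.5, 0 for the change to 12 weeks and 1 for the change to 39 weeks, and the other counts of calls were 0 as before. Over all genes at E18.5 the block left 2 higher and 1 lower. Correlations of same-numbered samples ran from -0.13 to 0.01 at E18.5, from -0.36 to 0.25 in 12-week ovaries and from -0.01 to 0.40 in 39-week ovaries. In PGCs they ran from -0.07 to 0.54 and in cumulus cells from -0.32 to 0.17. With both signs in every table the numbers were not taken as pairing the samples, although correlations of this kind cannot exclude it.

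Leaving out each library in turn gave 0 to 19 calls at E18.5 (median log2 fold change -0.43 to -0.28), 0 to 3 for the change from E18.5 to 12 weeks, 5 to 29 from E18.5 to 39 weeks and 0 to 1 from 12 to 39 weeks. Natural ovaries gave 17 to 28 calls between E18.5 and 12 weeks and 2 to 6 between 12 and 39 weeks. The count was 0 throughout in 12-week ovaries (median -0.03 to 0.09), 39-week ovaries (0.06 to 0.15), PGCs (-0.26 to -0.12), 12-week oocytes (0.04 to 0.13) and cumulus cells (0.11 to 0.20), and 35 to 52 members passed the fold in 39-week oocytes (median 0.27 to 0.64). The causes were not tested. Members with few counts in oocytes limit what those libraries can show.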

Other observations

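Among genes that serve the mitochondrial ribosome without belonging to it, genes were called in both directions between cumulus cells and oocytes of Natural mice, in shares near or below those of all genes (37% higher and 49.6% lower in cumulus cells). Of 23 assembly factors, 9 were called higher (39.1%) and 10 lower (43.5%). The lower ones included Rpusd4 (-4.63), Gtpbp10 (-4.43) and Nsun4 (-3.90, all log2 fold changes), which act on mitochondrial ribosomal RNA or its assembly, and the higher ones included Rnmtl1 (5.04). Of 13 translation factors 3 were higher (23.1%) and 5 lower (38.5%), among them the elongation factor Gfm1 (-4.15) and the RNA-binding Slirp (4.60). Of the 7 tested genes of the mitochondrial DNA 6 were higher, with a median of 1.76. These genes were named after their values were seen, and cell type and table cannot be told apart.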
